A study of Mus musculus with 4 samples.

Results

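The lysosome genes described here are 39 genes listed by symbol for their known function. The list was made with earlier results of these data known, and all 39 were found among the 31054 features of each count matrix. They comprise 3 membrane proteins, 3 proteins of sterol transport and calcium release, 2 transcription factors, 8 cathepsins, 5 glycosidases, 4 lipid hydrolases and their cofactors, and 14 subunits or accessory proteins of the V-ATPase. They were measured in lung cells of male C57BL/6 mice that were 19 months old at the start and received BPTES, a small-molecule inhibitor of the glutaminase GLS1, or DMSO, the vehicle, for 1 month. Each group had 2 libraries, and all mice shared the strain, sex and starting age. Lungs were digested with Liberase for 1 h, and 20000 CD45-negative cells were mixed with 9000 CD45-positive cells per library, so cell numbers of immune and other cells were set by the sort. The labels do not say whether the 2 libraries of a group came from separate animals, and p-values therefore measure the spread between these libraries.

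Lysosomes are acidic compartments in which hydrolases break down protein, glycan and lipid brought in by endocytosis and autophagy. The V-ATPase is a proton pump that keeps them acid: its V1 sector splits ATP in the cytosol and its V0 sector carries protons across the membrane. TFEB and TFE3 are transcription factors that switch on many lysosome genes together through a short DNA element built around the E-box CACGTG. Glutaminase turns glutamine into glutamate and ammonia, a base that can buffer acid leaking from damaged lysosomes, and the proposal that senescent cells lean on this reaction is the reason for asking how lysosome genes stood after BPTES. In the lung, macrophages take up surfactant and debris, and type 2 alveolar (AT2) cells store surfactant in lamellar bodies, which are lysosome-related organelles.

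Promoters are shown first because the 2 factors that bind the E-box are themselves among the genes. RefSeq promoter windows (GRCm38.p6, 250 bases before to 50 after the start) were at hand for 31 of the 39 genes. The motif CACGTG, which reads the same on both strands, was present in 11 of these 31 (35.5%) and in 8.09% of all 27025 genes with such a window. The longer form TCACGTGA, which contains the first and is also the same on both strands, was present in 6 of the 31 and in 1.12% of all genes. With a further G before and C after it, that form was present in 0 of the 31 and in 0.37% of all genes. A match is a string of letters and does not show binding. The upstream 250 bases of 4 genes with more than 1 upstream copy are printed 5′ to 3′ in the direction of transcription, with each CACGTG in capitals: Lamp1 at chr8:13158911-13159160 (plus strand), Ctsd at chr7:142387828-142388077 (minus strand), Mcoln1 at chr8:3500269-3500518 (plus strand) and Atp6v0b at chr4:117887330-117887579 (minus strand).
Lamp1: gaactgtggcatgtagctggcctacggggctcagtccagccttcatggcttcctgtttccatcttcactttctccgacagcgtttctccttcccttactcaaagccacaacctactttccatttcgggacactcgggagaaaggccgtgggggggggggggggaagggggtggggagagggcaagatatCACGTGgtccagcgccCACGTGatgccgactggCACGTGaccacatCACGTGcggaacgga
Ctsd: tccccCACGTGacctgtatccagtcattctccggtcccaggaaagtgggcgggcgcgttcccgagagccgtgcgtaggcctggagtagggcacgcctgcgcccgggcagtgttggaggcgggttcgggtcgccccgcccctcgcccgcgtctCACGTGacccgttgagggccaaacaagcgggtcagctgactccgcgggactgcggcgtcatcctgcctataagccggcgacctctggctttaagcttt
Mcoln1: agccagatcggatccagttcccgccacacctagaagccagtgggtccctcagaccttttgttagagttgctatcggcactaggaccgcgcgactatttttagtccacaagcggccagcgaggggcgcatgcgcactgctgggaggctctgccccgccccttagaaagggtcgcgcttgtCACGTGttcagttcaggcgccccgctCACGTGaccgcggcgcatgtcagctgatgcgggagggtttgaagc
Atp6v0b: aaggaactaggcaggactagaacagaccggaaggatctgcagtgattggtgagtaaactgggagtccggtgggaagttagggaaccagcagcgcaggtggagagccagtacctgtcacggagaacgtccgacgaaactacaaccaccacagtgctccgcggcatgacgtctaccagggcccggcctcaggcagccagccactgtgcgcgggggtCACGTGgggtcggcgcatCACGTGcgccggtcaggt
Lamp1 carried 4 copies, which began 61, 45, 28 and 15 bases upstream of the start. Ctsd carried 2 copies, 245 and 98 bases upstream. Mcoln1 had its copies at 71 and 45 bases and Atp6v0b at 36 and 18 bases. Ctsa, Glb1, Gaa, Ctsl, Atp6v1a, Atp6v0d1 and Atp6v0e held the motif as well, while the windows of Tfeb and Tfe3 did not hold these letters.

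After filtering, 63895 cells remained, between 14407 and 18860 per library, with 232611849 to 295323785 UMIs (unique molecular identifiers, each standing for 1 captured RNA molecule). The 4 libraries shared 75 to 121 cell barcodes pairwise, at most 0.680% of the smaller library. Cells fell into 35 clusters, of which 29 were named from markers into 25 classes and 6, with 14.0% of cells, stayed unnamed. Each class name ends in "-like", since RNA markers alone gave it. The lysosome genes and 119 related genes were left out of the clustering. Of the 25 classes, 20 had at least 30 cells in each library and were compared between treatments, and 24 had at least 10 and were described. Some class names carry a limit: the type 2 dendritic-like cluster also led with Ccl22, Flt3 and Siglech, genes of other dendritic cells, the pericyte-like cluster also scored as smooth muscle, and the AT1-like (type 1 alveolar) cells had a median UMI count of 0.256 of their libraries' median. Of the 2 neutrophil-like clusters, 1 with 583 cells also led with Adgre4, a monocyte gene, and had a relative depth of 1.93 against 0.618 in the other, and the alveolar macrophage-like cluster scored second for cycling genes. Levels are in CPM, counts scaled to the same total in each class and library, of a class's summed UMIs, as mean ± SD over the 4 libraries. Reads come from the 3′ end, and UMI counts were not scaled by gene length. Levels of 2 genes are captured molecules, and genes can differ in how well they are captured, so comparisons between genes are approximate.

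As a share of a class's UMIs, lysosome RNA was highest in macrophage-like and monocyte-like cells. Summed over the 39 genes, alveolar macrophage-like cells reached 15619 ± 934 CPM, interstitial macrophage-like cells 13729 ± 1195 and classical monocyte-like cells 11976 ± 191. Non-classical monocyte-like cells stood at 9279 ± 416 CPM and AT2-like cells, the highest class outside the blood lineage, at 7197 ± 115. The lowest sums of the 25 classes were in plasma-like cells, at 2195 ± 184 CPM, T-like cells, at 1911 ± 49.2, and club secretory-like cells, at 1813 ± 169, with natural killer (NK)-like cells next at 2285 ± 85.2. A low sum is a low share of a class's UMIs and need not be a low count per cell. Plasma-like cells, led by immunoglobulin genes, had median UMI counts of 55837 to 71603 per cell. They held 0.216% of the molecules of the lysosome genes with 0.148% of cells. Neighbouring classes overlapped in much of the lower part of this order. As shares of all molecules of these genes, alveolar fibroblast-like cells held 15.9%, classical monocyte-like cells 13.3% and general capillary endothelial-like cells 10.4%. These classes were 14.1%, 3.59% and 24.6% of cells. Alveolar macrophage-like cells held 2.94% and were 0.405% of cells. Unnamed clusters, among them clusters that scored best as alveolar fibroblast, are outside these class shares.

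**Figure D1:**
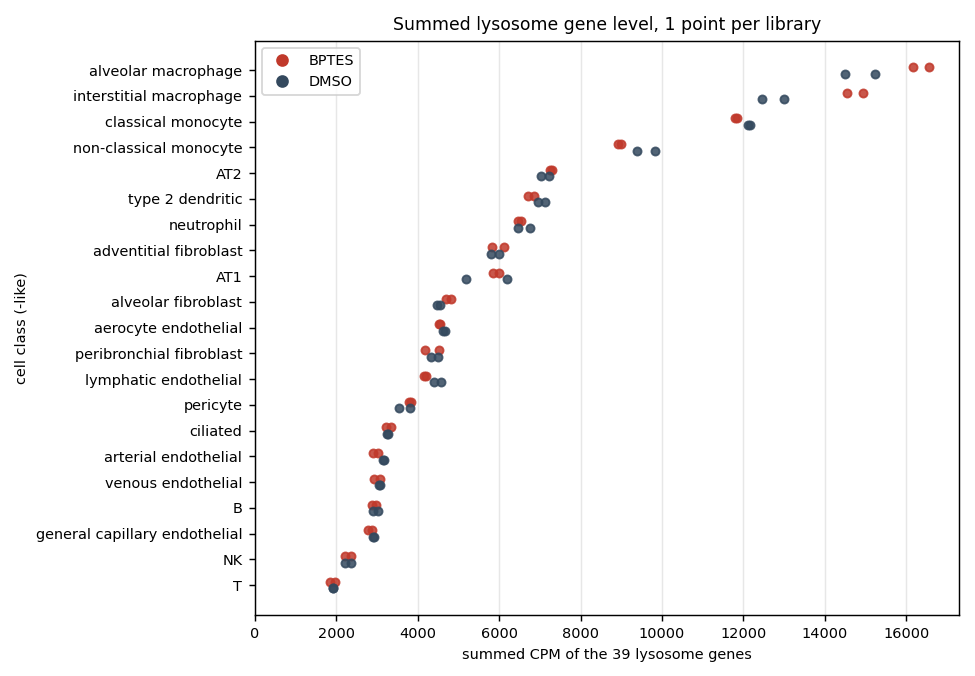
Summed CPM of the 39 lysosome genes (horizontal axis) in the 20 compared cell classes and the alveolar macrophage-like class (rows), 1 point per library, BPTES in red and DMSO in dark grey. The 2 macrophage-like classes and classical monocyte-like cells stand apart at the top, and their sums of 15619, 13729 and 11976 CPM compare with 1911 CPM in T-like cells.

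The division of the genes across cells differed by role. Among the 20 compared classes, 12 of the 39 genes were highest in interstitial macrophage-like cells, and 4 each in adventitial fibroblast-like, classical monocyte-like and neutrophil-like cells. With alveolar macrophage-like cells included, which had 28 to 103 cells per library and fell short of the 30-cell minimum, 15 genes were highest there and 5 in interstitial macrophage-like cells. For 21 genes the 4 libraries of the highest compared class all lay above those of the second, and for 18 they overlapped. The median ratio of the highest to the lowest class was 4.56 for the 14 V-ATPase genes and 23.2 for the other 25, with Atp6v0d2, which had 0 UMIs in 1 class, counted at its lower bound. A ratio over 10 was found for 2 of 14 V-ATPase genes, Atp6v0a1 and Atp6v0d2, and for 16 of 25 others, so most pump genes were spread more evenly than the other genes. These counts describe the levels and carry no test. In what follows, the highest, second and lowest class of a gene are those among the 20 compared classes, and alveolar macrophage-like values are given where named.

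**Figure D2:**
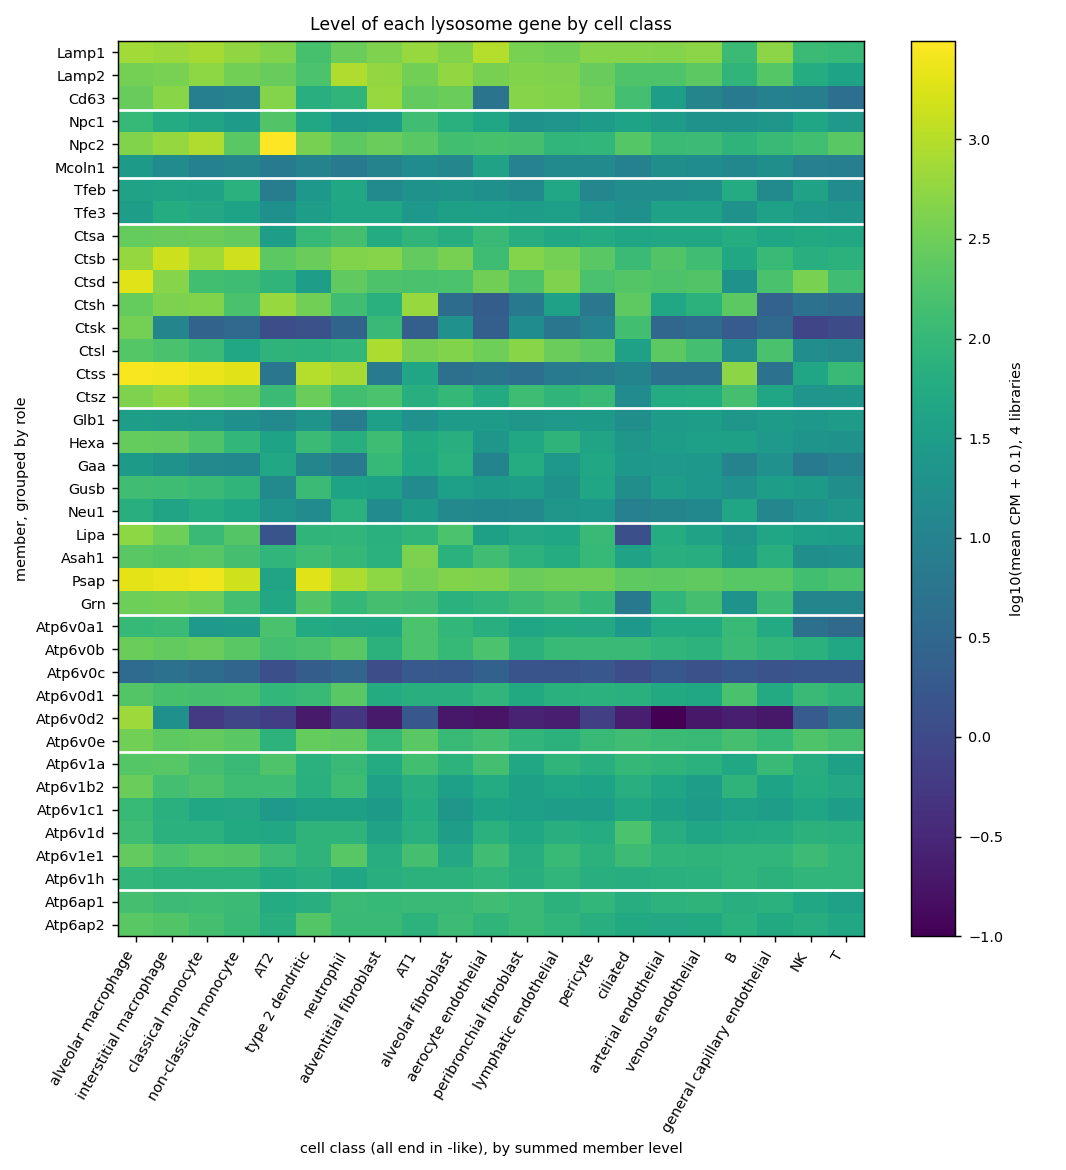
Mean level of each of the 39 genes (rows, grouped by role, white lines between roles) in 21 cell classes (columns, ordered by summed level), coloured by log10 of mean CPM over 4 libraries plus 0.1. The V-ATPase rows at the bottom are of even colour apart from Atp6v0d2 and Atp6v0a1, and the Atp6v0c row is low throughout. Ctss, Ctsh, Lipa, Ctsk and Cd63, the 5 genes with the largest ratios between compared classes apart from Atp6v0d2, run from dark to light.

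Of the membrane proteins, Lamp1, an abundant glycoprotein that lines the lysosome, was highest in aerocyte endothelial-like cells (the wide capillary cells of the alveolus), at 955, 992, 984 and 970 CPM in BPTES 1, BPTES 2, DMSO 1 and DMSO 2. The next class, classical monocyte-like cells, lay below them without overlap at 787 ± 24.7 CPM. Lamp2, its relative with a part in autophagy, was highest in neutrophil-like cells at 905 ± 65.1 CPM. Cd63, a tetraspanin of late endosomes, was highest in adventitial fibroblast-like cells, at 625, 654, 673 and 613 CPM in the same order, and lowest in T-like cells at 4.29 ± 0.738 CPM. GENCODE M21 names a Cd63 pseudogene that is not among the counted features, so reads shared with it could have been lost.

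Sterol transport genes marked AT2-like cells. Npc2, a soluble protein that hands cholesterol to NPC1, stood at 3272, 3111, 3157 and 2965 CPM in the 4 libraries of AT2-like cells. All 4 values exceeded those of classical monocyte-like cells, which came second at 912 ± 85.8 CPM, and B-like cells were lowest at 82.9 ± 2.01. Npc1, the membrane partner, was also highest in AT2-like cells, at 188 ± 6.44 CPM, and second in AT1-like cells, at 131 ± 12.2, with no overlap. Mcoln1, the lysosomal calcium channel, peaked in aerocyte endothelial-like cells at 39.5 ± 1.30 CPM, above arterial endothelial-like cells at 17.3 ± 2.75.

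The transcription factors were low throughout. Tfeb was highest in non-classical monocyte-like cells, at 75.2, 75.5, 74.0 and 74.4 CPM in BPTES 1, BPTES 2, DMSO 1 and DMSO 2, followed by B-like cells at 58.2 ± 1.69. Tfe3 was highest in interstitial macrophage-like cells, at 57.2, 62.1, 65.4 and 61.5 CPM, and had a narrower range. Both were lowest in AT2-like cells, Tfeb at 7.64 ± 0.816 CPM and Tfe3 at 17.7 ± 1.26.

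The cathepsins are the proteases of the lysosome. Ctss, a cysteine protease of antigen processing with the widest range of the genes that had UMIs in every compared class, was at 2838, 2921, 2501 and 2294 CPM in interstitial macrophage-like cells, overlapping classical monocyte-like cells at 2303 ± 69.7. It was 618 times lower in peribronchial fibroblast-like cells, at 4.27 ± 1.22 CPM. Ctsd, the aspartic protease, was at 1870 ± 243 CPM in alveolar macrophage-like cells, and interstitial macrophage-like cells had 25% of that, at 467 ± 132. Lymphatic endothelial-like cells, at 414 ± 27 CPM, and NK-like cells, at 396 ± 40.4, overlapped interstitial macrophage-like cells in Ctsd. Ctsh, an aminopeptidase that takes part in making surfactant protein B, was highest in AT2-like cells, at 629 ± 47.0 CPM, and AT1-like cells, at 628 ± 92.8, and these classes overlapped. Aerocyte endothelial-like cells had 1.99 ± 0.603 CPM of Ctsh. Ctsk, a collagen-degrading protease known from osteoclasts, was at 358 ± 33.2 CPM in alveolar macrophage-like cells, 134 ± 7.78 in ciliated-like cells and 110 ± 18.6 in adventitial fibroblast-like cells, with 3.11 CPM as the median over compared classes. Ctsl was highest in adventitial fibroblast-like cells at 887 ± 51.3 CPM, and Ctsb in non-classical monocyte-like cells at 1468 ± 96.5, overlapping interstitial macrophage-like cells. Ctsz stood at 556 ± 34.6 CPM in interstitial macrophage-like cells, and Ctsa, a carboxypeptidase that also shields other enzymes, at 312 ± 17.0 in classical monocyte-like cells.

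Glycosidases cut sugars from glycoproteins, glycolipids and glycogen. Hexa, of ganglioside breakdown, was highest among them in mean level, and its top compared class was interstitial macrophage-like cells at 262, 269, 245 and 265 CPM in the usual order of libraries. Gaa, which digests glycogen, was highest in adventitial fibroblast-like cells, at 107, 97.9, 104 and 94.2 CPM, and had the widest range of the group, 14.1 times. Gusb was at 126 ± 14.1 CPM in interstitial macrophage-like and 132 ± 10.3 in alveolar macrophage-like cells, and Neu1, a sialidase, peaked in neutrophil-like cells at 75.0 ± 5.16. Glb1 encodes the beta-galactosidase whose activity is stained as a sign of senescence. It was even across classes, from 7.94 ± 1.11 CPM in neutrophil-like cells to 34.7 ± 2.83 in adventitial fibroblast-like cells, and the top classes overlapped.

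Of the lipid hydrolases and cofactors, Psap, the precursor of the saposins that present lipids to enzymes, was at 2376, 2435, 2507 and 2555 CPM in classical monocyte-like cells. Interstitial macrophage-like cells overlapped them at 2307 ± 265, and AT2-like cells were lowest at 42.1 ± 3.73 CPM. Lipa, the acid lipase, was at 599, 588, 492 and 499 CPM in alveolar macrophage-like cells and 332, 374, 320 and 238 in interstitial macrophage-like cells. It was near absent in ciliated-like cells, at 1.16 ± 0.778 CPM, and in AT2-like cells, at 1.36 ± 0.480. Asah1, acid ceramidase, peaked in AT1-like cells at 410 ± 69.6 CPM and Grn, progranulin, in interstitial macrophage-like cells at 347 ± 28. AT2-like cells were therefore highest for cholesterol transfer and, overlapping AT1-like cells, for Ctsh, while lowest or near lowest for Psap and Lipa.

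V-ATPase subunits differed by isoform. The d subunit of V0 has 2 genes: Atp6v0d1 ranged from 50.5 ± 3.78 CPM in venous endothelial-like cells to 219 ± 4.98 in neutrophil-like cells. Atp6v0d2 stood at 774, 795, 636 and 574 CPM in alveolar macrophage-like cells, where it was a leading gene of the cluster although the cells were clustered without it. Interstitial macrophage-like cells had 28.9, 25.6, 3.12 and 14.3 CPM, 2.59% of the alveolar macrophage-like level, and Atp6v0d2 exceeded 1 CPM in 4 of the 20 compared classes. In arterial endothelial-like cells it had 0 UMIs, which makes the interstitial macrophage-like mean at least 109-fold higher than 3 UMIs over the 4 libraries would give. Atp6v0a1, the a1 isoform, was highest in AT1-like cells, at 164 ± 9.18 CPM, and AT2-like cells, at 161 ± 13.9, and lowest in T-like cells at 3.55 ± 0.407. Atp6v0e, the V0 gene with the highest mean over classes, was at 347 ± 20.6 CPM in alveolar macrophage-like cells and, highest among the compared classes, at 283, 251, 275 and 282 in type 2 dendritic-like cells. Atp6v0c encodes the proteolipid of the proton-carrying ring, and it had at most 4.93 ± 0.678 CPM in any compared class. GENCODE M21 names 2 pseudogenes of Atp6v0c, neither among the counted features, so its level is uncertain.

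The V1 and accessory genes varied least. Atp6v1e1, the V1 gene with the highest mean, was at 215, 205, 217 and 213 CPM in neutrophil-like cells, overlapping classical monocyte-like cells. Atp6v1a, the catalytic subunit, was at 205, 217, 204 and 225 CPM in interstitial macrophage-like cells and had the widest range of the V1 genes, 5.98 times. Atp6v1h varied 1.97 times over the 20 classes, and its top classes overlapped. Atp6v1d differed from the other V1 genes in peaking in ciliated-like cells, at 163 ± 9.70 CPM against 85.3 ± 3.15 in neutrophil-like cells, with no overlap. Atp6ap2, the prorenin receptor, was at 202, 192, 209 and 194 CPM in type 2 dendritic-like cells, and Atp6ap1 peaked among the compared classes in aerocyte endothelial-like cells at 130 ± 5.82, below the 150 ± 8.90 of alveolar macrophage-like cells.

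BPTES was then set against DMSO in each of the 20 classes, on summed counts per library, with edgeR's quasi-likelihood test and Benjamini-Hochberg adjustment over all genes of the class. A call is an adjusted p below 0.05. Of 749 gene-class combinations of the lysosome genes, 1 was called higher, Ctsd in interstitial macrophage-like cells, and 0 were called lower. Over all genes, 0.0479% of combinations were called higher and 0.0593% lower. At an unadjusted p below 0.05 there were 33 higher and 22 lower, 7.34% against 11.9% of all genes, and DESeq2, an alternative test, called 5 higher and 1 lower, beside 1.18% of all genes. The estimated change was under 0.5 on the log2 scale in 726 combinations (96.9%, beside 87.2% of all genes). It was over 1 in 7, where all genes gave 7434 of 246260. The median was 0.011 beside -0.0030 over all genes. Both BPTES libraries lay outside both DMSO libraries in 307 combinations, 158 higher and 149 lower, where all genes gave 21.8% and 22%. That share, 41.0%, is near the 43.8% of all genes. By role, the shares higher and lower were 16.0% and 28.2% for cathepsins and 19% and 26% for glycosidases. They were 13.9% and 22.8% for lipid hydrolases and cofactors and 28.3% and 15% for membrane proteins. Sterol transport and calcium genes had 33.3% and 5%, and transcription factors 25% and 15%. V0 subunits had 25.5% and 20.2%, V1 subunits 21.7% and 11.7% and V-ATPase accessory genes 15% and 25%.

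**Figure D3:**
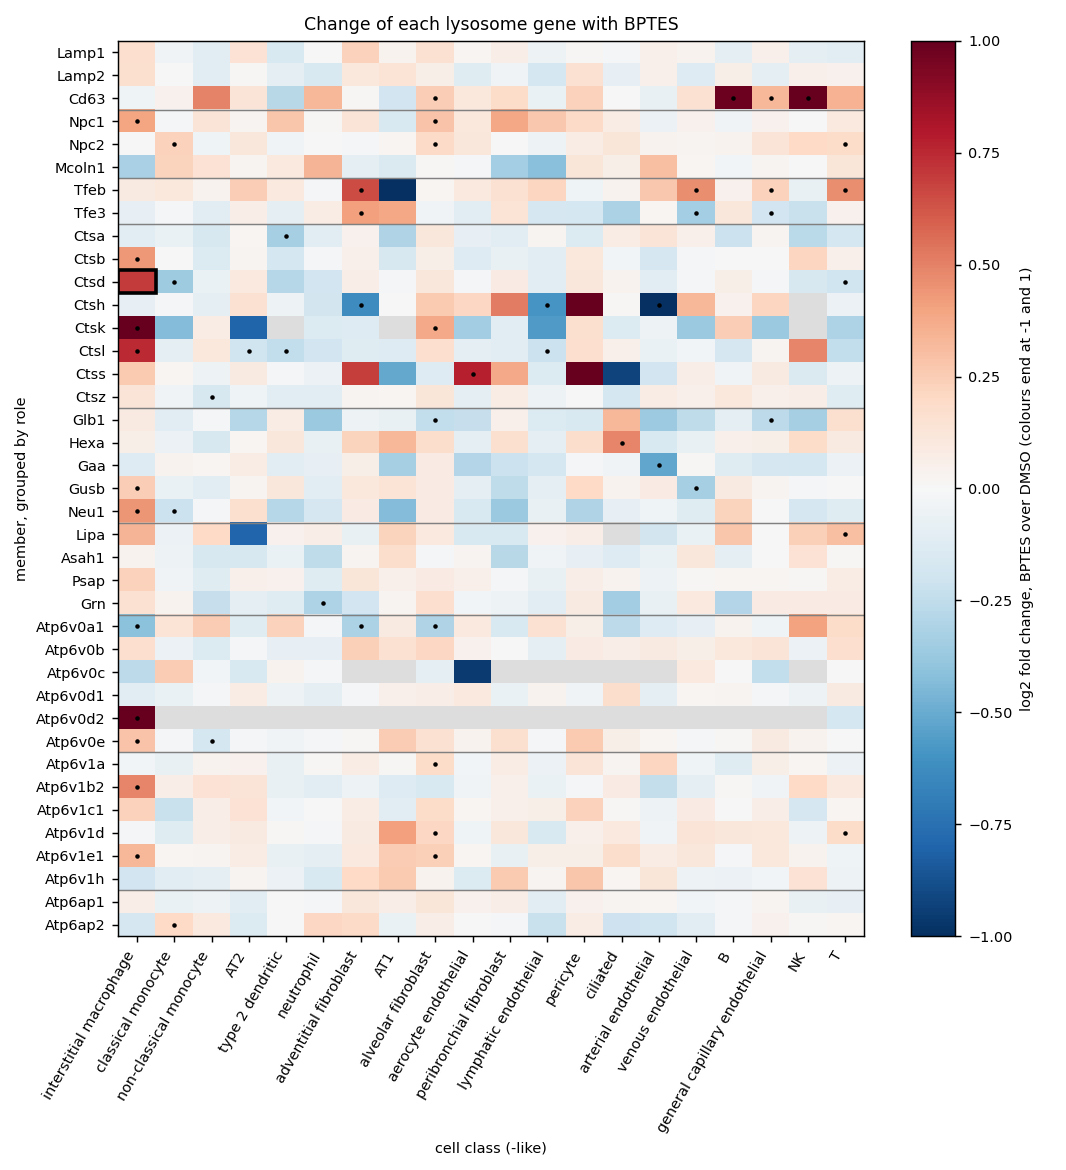
Log2 fold change of BPTES over DMSO for each gene (rows, by role) in each compared class (columns), red higher and blue lower, with colours ending at -1 and 1 and grey where a gene was too low to be fitted. The black box marks the 1 called combination, Ctsd in interstitial macrophage-like cells, and dots mark an unadjusted p below 0.05.

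In interstitial macrophage-like cells, the tissue macrophages outside the airspace, Ctsd rose. Several other cathepsins among the lysosome genes were estimated higher without passing the test. Ctsd (ENSMUSG00000007891) was at 558 and 603 CPM with BPTES and 344 and 369 CPM with DMSO, on library sizes scaled by the TMM method. The groups did not overlap, and their means were 580 ± 31.8 and 356 ± 17.7 (SD, n = 2 each). The log2 fold change was 0.70 ± 0.11 (SE), with a 95% interval from 0.45 to 0.95 and an adjusted p of 0.045 by edgeR. Of all genes fitted in this class, 0.399% were called higher. The adjusted p rose above 0.05 on leaving out BPTES replicate 1 (0.071), BPTES replicate 2 (0.26) or DMSO replicate 1 (0.064) and was 0.027 without DMSO replicate 2. Each of these fits has 1 library in a group, so its spread comes from the group that kept 2 and the lone library is assumed to vary like them. The call was also lost at clustering resolution 2 (edgeR adjusted p 0.082), with another clustering seed (0.072) and with doublets kept (0.092), and no interstitial macrophage class was named at resolution 0.5 or at a mitochondrial limit of 5%. The log2 fold change was 0.91 without the 2 cells of each library that held the most Ctsd UMIs, with an edgeR adjusted p of 0.028. Those cells held a larger share of the Ctsd UMIs in both DMSO libraries than in either BPTES library. Their removal therefore favoured a larger fold change, and this fit cannot show whether the call rests on a few cells.

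Ctsk in these cells was at 13.1 and 20.2 CPM with BPTES and 5.57 and 5.40 with DMSO, a log2 fold change of 1.61 ± 0.31 (edgeR adjusted p 0.071). These rest on 100 and 207 UMIs against 12 and 25, in 11.4% to 19.0% of cells, and 2 cells of each library held 25% to 28% of them. Ctsl was at 177 and 229 CPM against 119 and 123, 0.74 ± 0.15 (edgeR adjusted p 0.072). Ctsb was at 1588 and 1651 CPM against 1222 and 1181, 0.43 ± 0.10 (edgeR adjusted p 0.11). For these 3 proteases the groups did not overlap, and DESeq2 called all 3, together with Ctsd and Atp6v0d2, as its 5 higher calls, beside 3.83% of all genes that it called in this class. The other 4 cathepsins of the lysosome genes differed less: the estimates were 0.26 for Ctss, 0.13 for Ctsz, -0.08 for Ctsh and -0.11 for Ctsa. Some cathepsins among the related genes went the other way in this class. DESeq2 called Ctsc lower, at -0.38 (adjusted p 0.0499). With no filter on low counts, edgeR called Ctsc (-0.36), Ctse (-0.98), Ctsf (-0.74) and Ctsw (-1.74) lower. That fit called Ctsd, Ctsk, Ctsl and Ctsb higher, and it called 1245 of 19637 genes of the class. The macrophage form of the pump's d subunit, Atp6v0d2, was at 28.6 and 25.9 CPM against 3.25 and 13.8, 1.48 ± 0.42 (edgeR adjusted p 0.15). Its DMSO replicate 1 value rests on 7 UMIs in 3 cells, and 2 cells held 49.8% of its UMIs in BPTES replicate 1. Atp6v1b2, a V1 subunit, had an estimate of 0.49, Neu1 0.44 and Npc1 0.40, each with groups apart, and Atp6v0a1 one of -0.41 in the other direction.

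**Figure D4:**
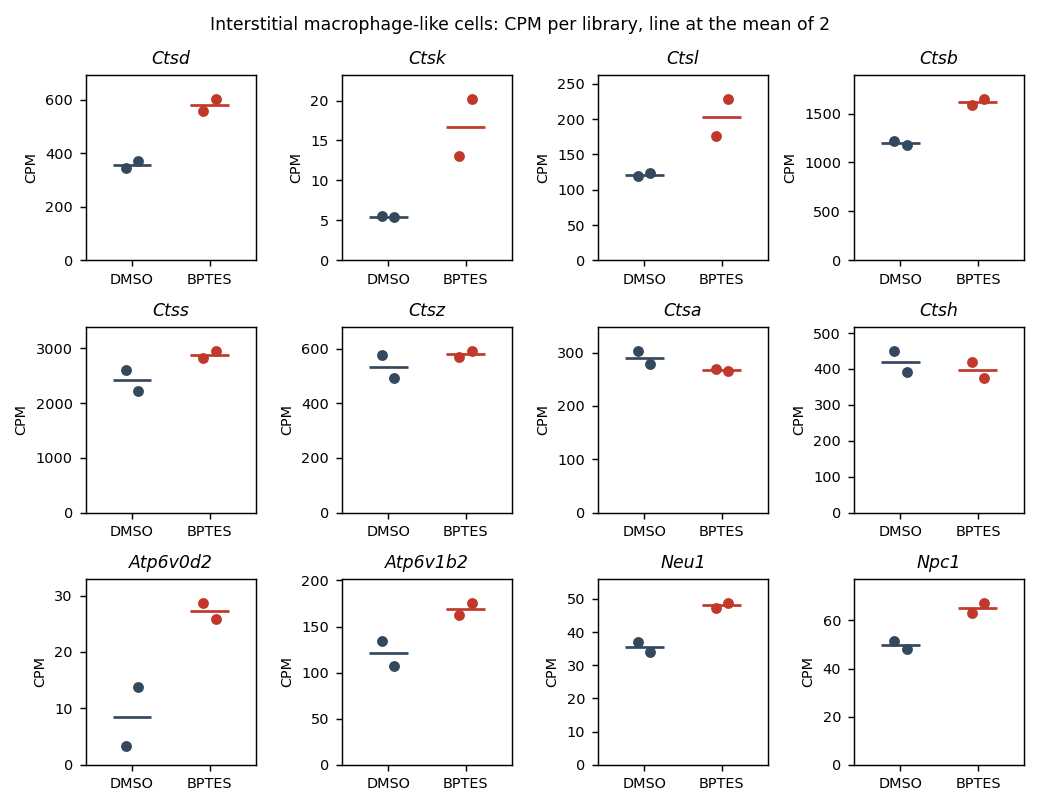
CPM per library in interstitial macrophage-like cells for the 8 cathepsins and 4 further lysosome genes, DMSO in dark grey and BPTES in red, with a line at the mean of 2 and each vertical axis starting at 0. Ctsd, Ctsk, Ctsl, Ctsb and Ctss lie higher in both BPTES libraries, while Ctsz and Ctsh overlap.

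At an unadjusted p below 0.05, 11 of the 39 genes were higher and 1 lower in this class, 16.9% of all genes in either direction. Of the 39, 18 lay apart higher and 6 apart lower, 61.5% against 48.9% of all genes (24.7% higher and 24.2% lower), and the median log2 fold change was 0.13 beside -0.0042. Their summed level was 14736 ± 276 CPM with BPTES and 12721 ± 382 with DMSO, without overlap. Such sums lay apart in other classes too, in either direction. In classical monocyte-like cells the sum was lower with BPTES, at 11812 ± 35.6 against 12140 ± 27.6 CPM. In alveolar fibroblast-like cells it was higher, at 4760 ± 82.6 against 4508 ± 54.6 CPM. Other features of interstitial macrophage-like cells moved along with the treatment. They numbered 248 and 305 per library with BPTES and 92 and 167 with DMSO, with median UMI counts per cell of 28234 and 29806 against 22636 and 23176. The 5 interstitial macrophage markers summed to 5780 and 5565 CPM against 7372 and 7950. The 6 B cell markers summed to 49.7 and 81.4 CPM against 213 and 313, and the 5 cycling markers to 107 and 99.6 against 46.3 and 26.6. The 5 non-classical monocyte markers stood at 430 and 416 CPM against 194 and 322. The 6 alveolar macrophage markers were not higher with BPTES, at 171 and 109 CPM against 145 and 205, 1.49% of the level in alveolar macrophage-like cells. The alveolar macrophage-like class itself numbered 68 and 103 cells with BPTES and 28 and 59 with DMSO. The part of cell make-up and depth in the Ctsd result was not tested.

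Whether the change in interstitial macrophage-like cells differed from that in other myeloid cells was tested by an interaction term, with the library as a block. The 4 classes were chosen after the data had been seen. The genes followed up were those with an unadjusted p below 0.05 in interstitial macrophage-like cells. The same counts entered again, so a difference for these genes was favoured in advance. Ctsd in classical monocyte-like cells was at 107 and 128 CPM with BPTES and 170 and 130 with DMSO, an estimate of -0.35 that was not called. The difference of the changes was 1.06 ± 0.16 on the log2 scale (edgeR adjusted p 0.033). Against non-classical monocyte-like cells it was 0.78 ± 0.14 (edgeR adjusted p 0.042), against type 2 dendritic-like cells 1.00 ± 0.15 (0.068) and against neutrophil-like cells 0.88 ± 0.17 (0.087). For Ctsl it was 0.82 ± 0.14 against classical monocyte-like cells (edgeR adjusted p 0.042), and the other 3 classes did not pass, at 0.63 ± 0.16 against non-classical monocyte-like cells (0.10), 0.98 ± 0.17 against type 2 dendritic-like cells (0.095) and 0.90 ± 0.21 against neutrophil-like cells (0.14). Of the 39 genes, 2, 1, 0 and 0 passed against classical monocyte-like, non-classical monocyte-like, type 2 dendritic-like and neutrophil-like cells. Of all genes, 1.16%, 0.612%, 0.0992% and 0.281% passed in the same order of classes.

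Alveolar macrophage-like cells, the resident cells of the airspace, were fitted only as an addition because DMSO replicate 1 had 28 of them. Of the 39 genes 0 were called, as were 0 of all genes, 5 had an unadjusted p below 0.05 where all genes gave 6.15%, and the smallest adjusted p was 0.78 by edgeR. Ctsd was at 2187 and 1995 CPM with BPTES and 1717 and 1638 with DMSO, 0.32 ± 0.11 on the log2 scale. Atp6v0d2 was at 780 and 807 CPM against 646 and 568, 0.39 ± 0.12, and Cd63 at 379 and 325 against 164 and 269, 0.68 ± 0.23. Lipa was at 600 ± 4.69 CPM (SD, n = 2) against 497 ± 4.26, 0.27 ± 0.11, and Ctsh was lower, at 244 and 258 against 310 and 294, -0.26 ± 0.11. These are the 5 genes, and all 5 had groups apart. In total 14 genes lay apart higher and 3 apart lower, 43.6% beside 38.7% of all genes.

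Alveolar fibroblast-like cells, the lipid-bearing fibroblasts of the alveolar wall, leaned the same way across many genes by small amounts. Of 38 genes fitted, 28 lay apart higher and 3 apart lower, 81.6% against 52.5% of all genes (26.3% higher and 26.2% lower). Their median log2 fold change was 0.10 beside -0.0030, the range was -0.30 to 0.38, and 0 were called, beside 0.0185% of all genes higher and 0.0677% lower. At an unadjusted p below 0.05, 7 were higher and 2 lower, where all genes gave 19.3%. Cd63 was at 337 and 331 CPM with BPTES and 276 and 289 with DMSO, Npc1 at 73.5 and 83.1 against 64.2 and 64.7, and Ctsk at 22.6 and 19.5 against 14.8 and 17.6. Atp6v0a1 went the other way, at 80.9 and 85.1 CPM against 106 and 98.2. Median UMI counts per cell were 21274 and 21528 with BPTES and 19502 and 20273 with DMSO, and the adventitial fibroblast markers were at 198 and 182 CPM against 146 and 152. The part of either was not tested. Lymphatic endothelial-like cells had the opposite balance, 3 apart higher and 15 apart lower of 37 where all genes gave 22% higher and 21.6% lower, with a median of -0.08. Other classes shared it, such as aerocyte endothelial-like cells, with 3 higher and 12 lower of 38 where all genes gave 20.1% and 20.6%. Neutrophil-like cells had 3 higher and 10 lower of 38, where all genes gave 20.1% and 20%.

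**Figure D5:**
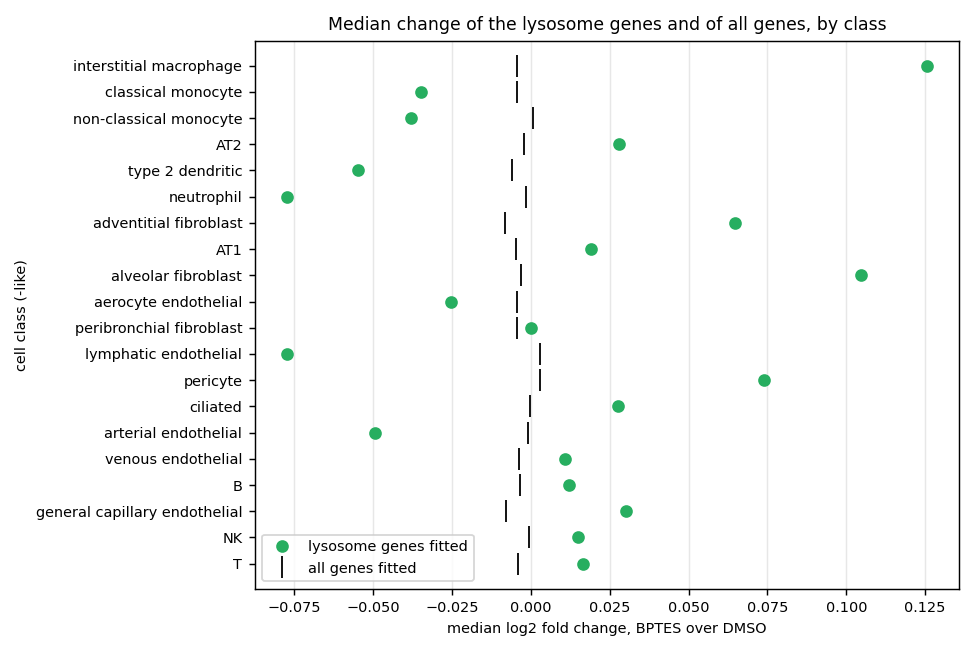
Median log2 fold change of BPTES over DMSO for the lysosome genes fitted in each class (green points) and for all genes fitted (black ticks). The lysosome medians lie between -0.08 in neutrophil-like and lymphatic endothelial-like cells and 0.13 in interstitial macrophage-like cells, and the ticks lie within 0.01 of 0.

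Of combinations outside macrophages, Ctsh in arterial endothelial-like cells had the smallest adjusted p. It was at 36.5 and 23.2 CPM with BPTES and 65.7 and 66.7 with DMSO, a log2 fold change of -1.14 ± 0.19 (edgeR adjusted p 0.094). DESeq2 called this combination (adjusted p 0.0073), beside 0.525% of all genes of the class, and 0 genes of the class were called by edgeR. By edgeR it was called lower with no filter on low counts (adjusted p 8.7e-11), where 633 of 19288 genes of the class were called, at resolution 0.5 (0.023, 20 of 10165 genes) and at the 5% mitochondrial limit (0.044, 14 of 10054). With 1 BPTES library it was called without BPTES replicate 1 (1.8e-05, 799 of 12030 genes) and without BPTES replicate 2 (0.0037, 231 of 12146). It was not called with 1 DMSO library, without DMSO replicate 1 (0.94, 0 of 11932) or 2 (0.20, 36 of 11977), and in these 4 fits too the spread came from the group that kept 2 libraries. The values rest on 164 and 97 UMIs against 260 and 365, in 10.5% to 15.1% of cells, with 15.9% to 25.8% of the UMIs of a library in 2 cells. In lymphatic endothelial-like cells Ctsh was at 30.5 and 28.6 CPM against 45.0 and 44.1, -0.59 ± 0.15 (edgeR adjusted p 0.12). In adventitial fibroblast-like cells it was at 49.1 and 62.9 CPM against 103 and 71.1. Ctsh in pericyte-like cells had the largest estimate among the 749, 1.87, without being called. Cd63, low in lymphocytes, was at 14.2 and 11.3 CPM against 5.05 and 4.69 in NK-like cells (edgeR adjusted p 0.31), which rests on 29 and 27 UMIs against 14 and 11, with 55.2% and 44.4% of the UMIs with BPTES in 2 cells.

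Some genes, chosen after their values were seen, leaned one way over many classes with 0 calls for each. Over all genes, 21.8% of combinations lay apart higher and 22% lower, and over all lysosome genes the share apart was no larger than that of all genes. Tfeb was estimated above 0 in 16 of 20 classes, with groups apart higher in 7 and lower in 0. In adventitial fibroblast-like cells it was at 17.3 and 17.7 CPM against 10.6 and 11.7. Npc1 and Npc2 each lay apart higher in 8 classes and lower in 0, Cd63 higher in 7 and lower in 1, and Atp6v1e1 higher in 6 and lower in 0. Both Npc genes were highest in AT2-like cells, which numbered 400 and 413 with BPTES and 127 and 243 with DMSO. Whether these cell numbers had a part in the lean was not tested. Glb1 was estimated below 0 in 15 of 20 classes, apart lower in 7 and higher in 1, and Ctsa was apart lower in 9 and higher in 2. Classes come from the same 4 libraries and are not independent of each other.

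Genes around these in the pathway, 119 in 7 lists of other hydrolases, membrane proteins, V-ATPase parts, enzyme sorting, nutrient sensing, autophagy and damage response, gave 2160 combinations and 0 calls in either direction. At an unadjusted p below 0.05, 115 were higher and 86 lower by edgeR, 9.31% against 11.9% of all genes, and DESeq2 called 8 higher and 2 lower, beside 1.18% of all genes. Groups lay apart in 42.5%, against 43.8% of all genes. Gpnmb, a glycoprotein induced in lipid-laden macrophages, was at 47.3 and 70.9 CPM with BPTES and 26.0 and 17.1 with DMSO in interstitial macrophage-like cells, 1.52 ± 0.27 on the log2 scale (edgeR adjusted p 0.062). Sort1, sortilin, which carries enzymes to lysosomes, was at 43.7 and 37.9 CPM against 24.6 and 22.3 in the same cells, 0.81 ± 0.15 (edgeR adjusted p 0.071). Acp2, a lysosomal acid phosphatase, was at 15.3 and 16.0 CPM against 21.5 and 22.4 in classical monocyte-like cells, -0.49 ± 0.10 (edgeR adjusted p 0.10). Lamp3, a leading gene of the AT2-like cluster, was called higher by DESeq2 but not by the main edgeR fit. Its DESeq2 log2 fold change was 1.55 in alveolar fibroblast-like cells (adjusted p 0.029) and 1.23 in general capillary endothelial-like cells (0.034). DESeq2 called 489 of 14599 and 721 of 12616 genes of these classes. With no filter on low counts, edgeR called Lamp3 higher in general capillary endothelial-like (adjusted p 5.0e-06), neutrophil-like (6.4e-07) and T-like cells (5.6e-05). That fit called 2171 of 23595, 285 of 19714 and 810 of 21531 genes of these classes. AT2-like cells numbered 400 and 413 with BPTES and 127 and 243 with DMSO, and the part of this in the Lamp3 values was not tested. By list, nutrient sensing genes lay apart higher in 97 of 283 combinations (34.3%) and lower in 49 (17.3%), where all genes gave 21.8% and 22%. Other hydrolases lay apart higher in 120 of 725 (16.6%) and lower in 154 (21.2%). The autophagy list stood at 59 higher and 41 lower of 220, and other V-ATPase subunits and assembly factors at 61 and 56 of 259.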

How the data were processed

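Filtered feature-barcode matrices of raw UMI counts, 1 per library, were deposited by the authors; they were made with Cell Ranger 8.0.1 on mm10, per the submitters' processing notes. Barcodes with at least 500 genes, 1000 UMIs and at most 10% mitochondrial UMIs were kept, and simulated-doublet scores removed 0.4% per 1000 barcodes. Cells were clustered (2000 variable genes without the lysosome lists, 40 components, 15 neighbours, Leiden in igraph 0.11.9, resolution 1, no correction between libraries) and named from markers. Counts were summed per library and class and tested with edgeR 4.0.16 (quasi-likelihood, TMM, filterByExpr, R 4.3.3), each class on its own, two-sided, with Benjamini-Hochberg adjustment. The fit was tested on simulated counts. The members and lists were chosen with earlier results of these data known. Values per library were given for called combinations and, per role, for the gene of highest mean and of widest range over classes, and for the 3 list combinations of smallest adjusted p; other genes, such as those with groups apart, were named after their values were seen. DESeq2 1.42.0, other filters, clusterings and libraries left out were alternatives.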

Additional observations from a re-analysis of the deposited data

Results flagged for a closer look

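The change of Ctsd with BPTES differed between interstitial macrophage-like cells and 2 other myeloid classes by an interaction test with edgeR. The difference of log2 fold changes was 1.06 against classical monocyte-like cells (adjusted p 0.033) and 0.78 against non-classical monocyte-like cells (adjusted p 0.042). For Ctsl it was 0.82 against classical monocyte-like cells (adjusted p 0.042). The sums of both classes come from the same 4 libraries, and the 4 classes compared were chosen after the data had been seen. Both genes were followed up for their values in interstitial macrophage-like cells, whose counts entered again, so a difference was favoured in advance. The test ran over all genes, and 2 of the 39 lysosome genes passed against classical monocyte-like cells (1.16% of all genes) and 1 against non-classical monocyte-like cells (0.612%). Against type 2 dendritic-like and neutrophil-like cells 0 of the 39 passed, with adjusted p-values of 0.068 and 0.087 for Ctsd. The Ctsd call in interstitial macrophage-like cells was itself lost under several alternatives given below. Cell number, depth and marker sums of that class also moved with the treatment, and their part was not tested.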

How the results depend on the processing

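The count of lysosome genes called higher (1) became 5 with DESeq2, 10 with no filter on low counts, 2 at resolution 0.5, and 0 with the replicate block, at resolution 2, with seed 1, with doublets kept or at a mitochondrial limit of 5%; it ran from 1 to 3 without 1 replicate. The count called lower (0) became 1 with DESeq2, the replicate block, resolution 0.5 or the 5% limit, each time Ctsh in arterial endothelial-like cells, 4 with no filter, and ran from 1 to 3 without 1 replicate. The share of all genes called in either direction moved too, from 0.107% to 1.18% with DESeq2, 2.68% with no filter, 1.06% with the block, 0.443% at resolution 0.5 and 0.482% to 1.77% without 1 replicate, and both higher calls at resolution 0.5 lay in a class named plasma there, where 820 of 8796 genes were called and 631 of its 725 cells were unnamed in the clustering of the report. For the pathway lists, 0 called higher became 8 with DESeq2, 30 with no filter, 6 with the replicate block, 5 at resolution 0.5, 1 at the 5% limit and 1 with the listed genes among the clustering genes, and ran from 0 to 9 without 1 replicate; 0 called lower became 2, 28 and 5 with DESeq2, no filter and the block, and ran from 1 to 6. The 12 genes highest in macrophage-like classes became 0 at resolution 0.5 and at the 5% limit, where no interstitial macrophage class was named, and 20 at resolution 2, 20 with the listed genes in the clustering, 20 at a minimum of 25 cells and 23 with doublets kept. The summed level of 13729 CPM in interstitial macrophage-like cells was 8782 without Psap and Ctss. Elsewhere the cause was not tested.

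Ctsd in interstitial macrophage-like cells stayed between 0.57 and 0.91 on the log2 scale. The 0.91 came from removal of the top Ctsd cells, which took a larger share of the UMIs from DMSO. Its edgeR adjusted p was 0.090 with the replicate block, 0.082 at resolution 2, 0.072 with seed 1 and 0.092 with doublets kept. Ctsh in arterial endothelial-like cells stayed between -1.51 and -0.86. Replicate numbers gave no clear pairing of the libraries in most classes. Correlations of same-numbered deviations ran from -0.084 to 0.18 over classes, with a median of -0.010 and -0.072 in interstitial macrophage-like cells. The 0.18 was in general capillary endothelial-like cells, where the replicate block raised the genes called from 0 to 1337. The minimum of 25 cells and the removal of the top Ctsd cells were chosen after seeing the data.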
